A study of Mus musculus with 8 samples.

Results

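Of the genes that NIC mammary tumor cells with wild-type Src already express, 98 were present at higher levels in both c-Src deficient cell lines. They were selected on measured values. A gene was taken when it reached at least 1 FPKM in all 4 wild-type libraries and when each deficient line lay at least 1.5 above the mean of the wild-type lines on the log2(FPKM + 1) scale, duplicates averaged. FPKM is the number of fragments counted on a gene, scaled to the length of the gene and to the fragments counted in the library. Of 39993 genes in the table, 10730 met the expression requirement, and the 98 genes made up 0.913% of these. Because the choice used the difference between genotypes, the size of that difference is given below as a description and no test is read from it.

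Transcripts were measured by RNA-Seq in 4 lines of mouse mammary tumor cells on the FVB/N background, with a pair of biological duplicates for each line and 8 libraries in all. All 4 lines carry MMTV-NIC, a transgene in which the MMTV promoter directs oncogenic ErbB2 and Cre recombinase from the same transcript to mammary epithelium, so the wild-type lines express Cre as well. Lines m5567 and m8905 have wild-type Src alleles (MMTV-NIC/c-Src WT/WT, written NIC/c-Src+/+). The deficient lines, m4447 and m9327, carry Src alleles flanked by LoxP sites on both chromosomes (MMTV-NIC/c-Src LoxP/LoxP, written NIC/c-SrcL/L), which Cre targets. The cells were grown at passages 10 to 15 in DMEM with serum, EGF, hydrocortisone, insulin and bovine pituitary extract. Each line comes from a separate tumor, so differences between tumors enter every comparison of the genotypes, which rests on 2 lines on each side. The libraries held between 14069716 and 17773742 counted reads, solved from the deposited values. Identifiers in the table belong to the FVB/NJ annotation, and 0 of the 39993 were in the reference tables used here. Gene names, Src itself as a check of the genotype, and markers of mammary or other cell types were therefore not analysed here, and the genes are described by level, by rank and, for 2 of them, by identifier.

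c-Src is a membrane-associated tyrosine kinase that is activated downstream of ErbB2 and related receptors and passes their signals to pathways of growth, adhesion and motility. In ErbB2-driven mammary tumors it has also been linked to energy metabolism and to PRC2, the complex that deposits the repressive H3K27me3 mark on chromatin.

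The 98 genes were mostly at modest levels in the NIC/c-Src+/+ lines and were among the more abundant transcripts in the deficient lines. Their median level was 5.91 FPKM in m5567 and 6.58 in m8905, against 53.8 in m4447 and 44.7 in m9327. The quartiles were 2.81 and 18.6 FPKM in m5567, 3.08 and 12.6 in m8905, 26.4 and 153 in m4447, and 18.9 and 107 in m9327. The median of all 10730 expressed genes was nearly level over the same lines, at 14.7, 14.6, 13.8 and 14.2 FPKM. Ranked among those expressed genes, the median gene of the 98 stood at percentile 26.1 in m5567 and 28.9 in m8905, and at percentile 80.7 in m4447 and 76.2 in m9327. At least 100 FPKM was reached by 3 of the genes in each wild-type line, by 37 in m4447 and by 25 in m9327. The plot of levels by library shows the shift of the whole distribution, which is alike in the duplicates of a line. In bulk RNA, a larger share of cells expressing a gene and more RNA per cell cannot be told apart.

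**Figure D1:**
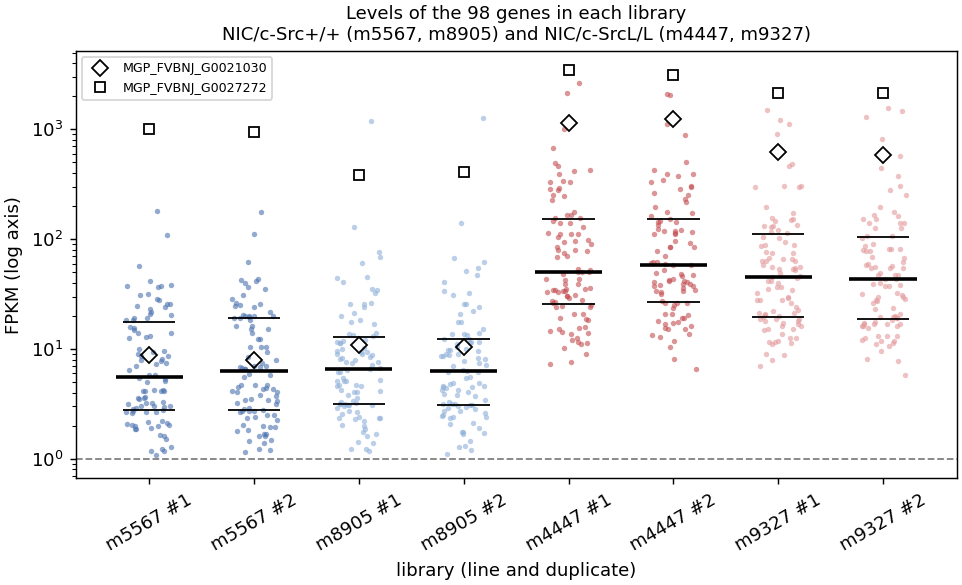
FPKM of each of the 98 genes (points, log axis) in the 8 libraries, with the median (thick line) and quartiles (thin lines) of each library, the 2 genes named in the text as open symbols and the requirement of 1 FPKM as a dashed line. Library medians lie between 5.60 and 6.51 FPKM in the NIC/c-Src+/+ lines and between 43.4 and 57.8 FPKM for the deficient lines.

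The ratio of the mean FPKM of the deficient lines to that of the wild-type lines had a median of 6.93, with quartiles of 4.71 and 12.3 and a range from 2.73 to 94.1. It was at least 4 for 86 genes, at least 8 for 40, at least 16 for 18 and at least 32 for 8. On the log2(FPKM + 1) scale, which understates the change of genes at low FPKM, the difference from the wild-type mean had a median of 2.58 in m4447 (range 1.52 to 6.83) and of 2.18 in m9327 (range 1.51 to 7.11). These differences share the same wild-type libraries. Over all 10730 expressed genes the median difference, averaged over the deficient lines, was -0.11, with quartiles of -0.45 and 0.22. For each of the 98 genes the lowest NIC/c-SrcL/L library lay above the highest NIC/c-Src+/+ library, which held for 15.4% of the expressed genes, and for 93 of them by at least 2-fold. The rule itself makes this separation likely, and nothing is read from it. In the genotype comparison by limma on line means, 24 of the 98 genes passed the adjusted threshold, beside 0.450% of the 12673 genes tested that did so in that direction, and this count too only restates the choice. It was 0 by limma without a filter and 0 by limma's voom on solved reads, chosen after seeing the data. Of all genes tested, 0 passed in either direction under these settings. In that direction, unadjusted p was under 0.05 for 93 and 96 of the 98, beside 1708 of all 22673 and 1187 of all 12673. The count was 3 with a pseudocount of 0.1, beside 0.15% of all genes tested, and 39 with a filter at a mean of 2 FPKM, beside 0.794%. With line as a random block it was 96, beside 5.79% of all genes tested, or 4.72% with the duplicate number as a further block, and with the 8 libraries as independent samples it was 97, beside 15.2%.

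**Figure D2:**
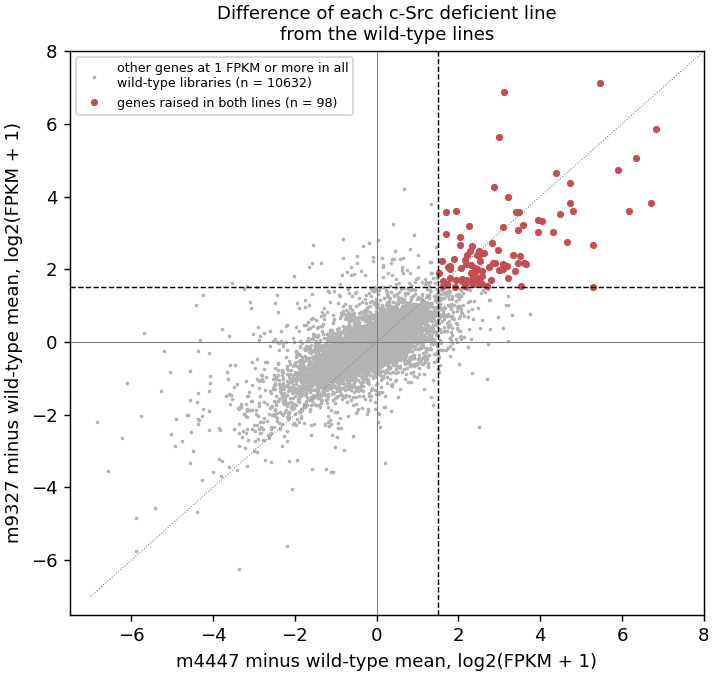
Difference of m4447 (x axis) and of m9327 (y axis) from the mean of the wild-type lines, log2(FPKM + 1), for the 98 genes (red) and the other 10632 expressed genes (grey), with the threshold of 1.5 as dashed lines and equality as a dotted line. Both axes use the same wild-type values. Of the 98 genes, 72 lie on the m4447 side of equality and 26 on the m9327 side.

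The gene with the largest average difference was MGP_FVBNJ_G0021030. It measured 8.75 and 7.86 FPKM in the libraries of m5567, 10.9 and 10.3 in m8905, 1133 and 1233 in m4447, and 617 and 580 in m9327. All 4 deficient libraries were far above the wild-type libraries, and m4447 was 1.98-fold above m9327. The mean was 9.46 ± 1.64 FPKM over the wild-type lines and 891 ± 413 FPKM over the deficient lines (SD, n = 2 each), a ratio of 94.1. Between 111 and 173 reads stood behind the wild-type values and between 7747 and 19003 behind the deficient ones. The difference between m4447 and m9327, whose levels both entered the choice, was 0.98 on the log2 scale (SE 0.10, adjusted p = 7.21e-05, limma). Between the wild-type lines it was -0.32 (m5567 minus m8905, SE 0.10, adjusted p = 0.0469, limma), and this call was kept under 8 of 17 other settings, with adjusted p between 0.0209 and 0.262.

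Of the other genes, MGP_FVBNJ_G0027272 was the most abundant in the deficient lines. It was already high in the wild-type lines, at 1000 and 944 FPKM in m5567 and 386 and 405 in m8905, and reached 3439 and 3119 in m4447 and 2126 and 2147 in m9327. The lines stood in the order m8905, m5567, m9327 and m4447, with no overlap between libraries of neighboring lines. The mean was 684 ± 407 FPKM over the wild-type lines and 2708 ± 808 FPKM over the deficient lines (SD, n = 2 each), a ratio of 3.96, so that a gene near the lower end of the ratios was the most abundant of the 98 in both deficient lines. In m8905 the gene of rank 79 was more abundant. It differed within both genotypes, by 0.62 between m4447 and m9327 (SE 0.10, adjusted p = 0.00083, limma) and by 1.29 between m5567 and m8905 (SE 0.10, adjusted p = 2.81e-05, limma). The difference between its wild-type lines, 2.46-fold in FPKM, was thus larger than that between its deficient lines, 1.53-fold.

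Together the 98 genes made up a small share of the RNA of the wild-type lines and several times more in the deficient lines. Their summed level was 2299 and 2287 FPKM in m5567, 2777 and 2855 in m8905, 20047 and 19851 in m4447, and 14231 and 14617 in m9327. As a share of all FPKM in the library this was 0.255% and 0.251% in m5567, 0.308% and 0.311% in m8905, 2.07% and 2.17% in m4447, and 1.53% and 1.56% in m9327. The separation by genotype follows from the choice, and between the deficient lines the sum was larger in m4447. It was not carried by the most abundant gene of the deficient lines, since without MGP_FVBNJ_G0027272 the sums were between 1299 and 2450 FPKM in the wild-type libraries and between 12105 and 16732 in the deficient ones. The 5 genes with the highest levels in the deficient lines gave between 51.1% and 60.2% of the sum in the wild-type libraries and between 43.1% and 48.9% in the deficient libraries, as the bars of summed FPKM show.

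**Figure D3:**
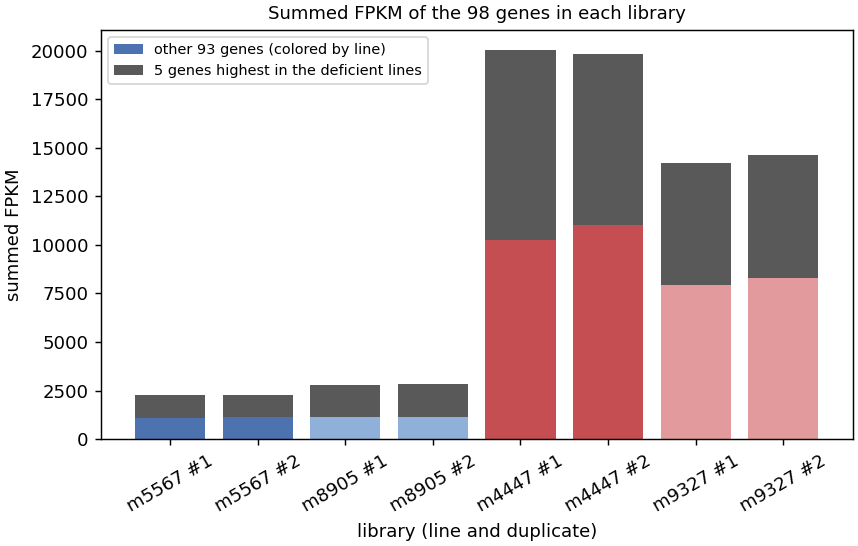
Summed FPKM of the 98 genes in each of the 8 libraries, split into the 5 genes with the highest mean FPKM in the deficient lines (dark) and the other 93 (colored by line). The sums lie between 2287 and 2855 FPKM in the NIC/c-Src+/+ libraries, between 14231 and 14617 in m9327 and between 19851 and 20047 in m4447.

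Genes at low wild-type levels were more often among the 98 and had the larger median ratios. Of the 1212 expressed genes with a wild-type mean from 1 to under 3 FPKM, 26 (2.15%) were among them, with a median ratio of 8.41. From 3 to under 10 FPKM it was 38 of 3042 genes (1.25%, median ratio 7.10), from 10 to under 30 FPKM 24 of 2992 (0.802%, median ratio 5.08), and at 30 FPKM or more 10 of 3484 (0.287%, median ratio 4.70). The ranges of the ratios overlapped over these groups, from 4.26 to 81.6 in the lowest and from 2.73 to 20.5 in the highest. In the deficient lines the order of the groups was kept, with median levels of 17.3, 36.6, 101 and 397 FPKM. A gene near 1 FPKM needs a larger ratio than an abundant one to reach 1.5 on the log2(FPKM + 1) scale, so the order of the ratios follows in part from the rule. The shares by wild-type level also rest on values that the rule used, and nothing is read from them.

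Among the genes with the largest differences, levels in the deficient lines ranged widely and the lines did not always stand in the same order. The gene of rank 2 by average difference measured 13.3 and 16.2 FPKM in m5567, 3.33 and 4.55 in m8905, 492 and 302 in m4447, and 1121 and 1302 in m9327. Its 2 wild-type lines differed by 3.74-fold and its deficient lines by 3.05-fold, with m9327 higher. It is also the shortest of the 98 genes, with a length of 203 bp solved from the values, and rested on 12 and 13 reads in m8905. The gene of rank 3 was even within the wild-type lines, at 25.4, 25.7, 26.0 and 22.3 FPKM, and reached 2124 and 2076 FPKM in m4447 and 904 and 811 in m9327. It therefore had a ratio of 59.5 from a control level that varied little between lines. The gene of rank 8 started from 1.17 and 1.48 FPKM in m5567 and 2.01 and 1.47 in m8905, and measured 69.6 and 61.1 in m4447 and 52.9 and 49.0 in m9327. It was close to the expression requirement in the wild-type lines. Each m4447 library lay above each m9327 library, and the log2 difference of 0.35 just missed the threshold (SE 0.13, adjusted p = 0.0518, limma).

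The rule did not compare m4447 with m9327, but it used the level of each, so the counts and differences between these lines are given as a description of the 98 genes. The requirement in both lines also limits how far apart they can lie for genes with a small average difference. Of the 98 genes, 57 were higher in m4447 (limma with the 4 lines as groups, Benjamini-Hochberg adjustment), beside 18.2% of all 12673 genes tested. In the other direction 13 were higher in m9327, beside 29.0% of the genes tested, and 28 did not pass the threshold. In either direction, 70 of the 98 genes (71.4%) and 47.2% of the genes tested differed between these lines. The 57 genes are 58.2% and the 13 genes 13.3% of the 98. Since more expressed genes reached 1.5 above the wild-type mean in m4447 than in m9327, 271 against 175, nothing is read from this split. After quantile normalization, 49.6% of all called genes were higher in m4447, against 38.5% with the deposited scaling, while the 98 genes split into 59 and 14. The p-values measure the spread between duplicate cultures and compare these lines, not kinds of tumor.

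The differences between the deficient lines were often large. The median absolute difference was 0.63 on the log2 scale for the 98 genes and 0.31 for all genes tested, and 29 of the 98 genes (29.6%) were at least 2-fold apart on this scale, compared with 11.1% of the genes tested. The standard error of a single difference was between 0.09 and 0.23. The 57 genes higher in m4447 differed by between 0.36 and 3.77, with a median of 0.90, and had median levels of 108 FPKM in m4447 and 41.5 FPKM in m9327. The 13 genes higher in m9327 differed by between -3.75 and -0.39, with median levels of 30.9 FPKM in m4447 and 85.3 FPKM in m9327. In the wild-type lines the median levels of these groups were alike, at 6.10 and 6.50 FPKM, and that of the 28 other genes was 5.91 FPKM. Those 28 genes had differences between -0.38 and 0.35 and median levels of 35.0 FPKM in m4447 and 34.5 FPKM in m9327. With 2 duplicates per line, a missed threshold does not show equal levels.

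At the extremes in either direction, the deficient lines were far apart. The gene of rank 6 measured 7.88 and 10.4 FPKM in m5567, 13.5 and 12.3 in m8905, 85.7 and 120 in m4447, and 1209 and 1571 in m9327, so that m9327 was 13.5-fold above m4447 (log2 difference -3.75, SE 0.19, adjusted p = 1.43e-06, limma). The gene of rank 25 measured 14.0 and 14.0 FPKM in m5567, 1.97 and 2.95 in m8905, 335 and 232 in m4447, and 22.2 and 17.0 in m9327, so that m4447 was 14.4-fold above m9327 (log2 difference 3.77, SE 0.20, adjusted p = 1.77e-06, limma). In this gene m9327 was hardly above m5567, and it was also the gene nearest to the threshold from inside, with a difference from the wild-type mean of 1.51 in m9327. In contrast, the gene of rank 9 measured 3.63 and 3.78 FPKM in m5567, 5.09 and 4.57 in m8905, 95.4 and 123 in m4447, and 135 and 127 in m9327. Its libraries of the deficient lines lay close together, and the difference of -0.27 between them did not pass the threshold (SE 0.13, adjusted p = 0.117, limma).

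Differences between the wild-type lines were smaller in the median. Between them, 19 of the 98 genes were higher in m5567, beside 12.0% of the genes tested, and 27 were higher in m8905, beside 11.9%, by the same limma fit. These are 19.4% and 27.6% of the 98 genes. Without the first library of m8905 the count higher in m5567 was 12, beside 8.1% of the genes tested, and without the first library of m5567 the count higher in m8905 was 17, beside 7.15%. The shares of all genes thus fell as well. The median absolute difference was 0.39 for the 98 genes and 0.20 for all genes tested. In 14 genes (14.3%) the wild-type lines were at least 2-fold apart on the log2(FPKM + 1) scale, compared with 4.98% of the genes tested. The rule also used the levels of both wild-type lines, so nothing is read from these shares and medians. The widest difference was in the gene of rank 79, which measured 180 and 175 FPKM in m5567, 1192 and 1276 in m8905, 2619 and 2108 in m4447, and 1505 and 1466 in m9327. Here m8905 was 6.94-fold above m5567 (log2 difference -2.79, SE 0.12, adjusted p = 1.06e-06, limma) and the lowest deficient library was 1.15-fold above the highest wild-type library, the narrowest gap among the 98 genes. The widest difference the other way on the log2(FPKM + 1) scale was 2.17, in the gene of rank 52, at 36.9 and 39.9 FPKM in m5567, 6.19 and 9.61 in m8905, 79.7 and 70.5 in m4447, and 133 and 142 in m9327. By the ratio of FPKM, the gene of rank 25 came first in that direction, with m5567 at 5.67-fold of m8905 against 4.86-fold for the gene of rank 52. For such genes, the average of the wild-type lines describes neither line well.

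**Figure D4:**
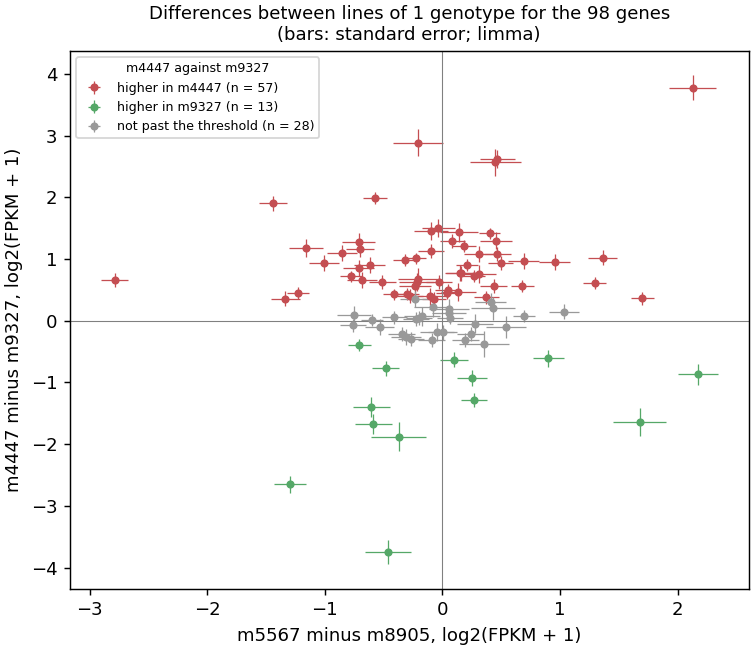
Difference between the wild-type lines (x axis, m5567 minus m8905) and between the deficient lines (y axis, m4447 minus m9327), log2(FPKM + 1), for each of the 98 genes, with standard errors from limma as bars. Colors mark the 57 genes higher in m4447, the 13 higher in m9327 and the 28 that did not pass the threshold. The positions on the axes share no library, but the bars and calls come from a fit of all 8 libraries and share its estimate of spread.

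Genes that differed between the deficient lines lay on both sides of equality between the wild-type lines, as the plot of differences within genotypes shows. Of the 57 genes higher in m4447, 14 were higher in m5567 and 17 in m8905. Of the 13 higher in m9327, 3 were higher in m5567 and 5 in m8905, and of the 28 others it was 2 and 5. For all genes tested, 12.5% of those higher in m4447 were higher in m5567 and 14.9% in m8905, of those higher in m9327 it was 17.4% and 14.7%, and of those not called between the deficient lines 8.77% and 9.42%. In 21 of the 98 genes (21.4%) no difference passed the threshold within either genotype, compared with 43.2% of all genes tested. Levels of every line entered the choice of the 98 genes, so nothing is read from this contrast or from the shares above. Those 21 genes had a median average difference between genotypes of 2.31 on the log2 scale, and the largest was 4.54, in the gene of rank 8.

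The number of expressed genes that lay at least 1.5 above the wild-type mean was 271 in m4447 and 175 in m9327, and the 98 genes were 36.2% of the first list and 56.0% of the second. These lists share the wild-type libraries, so their overlap is given only as the count that the rule itself makes. By the mirror rule, 201 expressed genes lay at least 1.5 below the wild-type mean in both deficient lines, 82 of them still at 1 FPKM or more in all deficient libraries. A further 172 genes were under 1 FPKM in all wild-type libraries and at 1 FPKM or more in all deficient libraries. Their median level in the deficient lines was 3.36 FPKM, compared with 53.4 FPKM for the 98 genes, which therefore held far more transcript per gene. Both values follow in part from how the lists were chosen. Between the deficient lines, the median of m4447 minus m9327 on the log2 scale was 0.44 for the 98 genes and 0.24 for these 172 genes, -0.44 for the 201 lowered genes and -0.09 for all genes tested. The choice of these lists used the levels of both deficient lines, and m4447 also had more expressed genes at least 1.5 below the wild-type mean, 637 against 273 in m9327, so nothing is read from these medians.

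Duplicates of a line were close for most of the 98 genes. The median absolute difference between duplicates was 0.12 on the log2 scale in m5567, 0.12 in m8905, 0.19 in m4447 and 0.11 in m9327. For the expressed genes it was 0.08, 0.10, 0.16 and 0.12, so lower than for the 98 genes except in m9327. Among the 98 genes, the absolute difference exceeded 0.5 for 2, 3, 3 and 0 genes in these lines. In m4447, 77 of the 98 genes were higher in the second duplicate, with a median difference of -0.15 (first minus second), and the 10730 expressed genes showed a median of -0.10 in the same pair. The count of 57 genes higher in m4447 was 55 and 48 without the first and the second library of m4447, beside 18.1% and 14.8% of all genes tested, and 51 and 48 without those of m9327, beside 15.8% and 13.9%. The depth was ample in the deficient lines, where no gene had fewer than 73 reads in a library. In the wild-type lines 25 genes had fewer than 50 reads in at least 1 library, and the lowest number was 12, for which counting error alone is 28.9%.

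Gene length was not part of the rule. Lengths solved from the values had a median of 1625 bp for the 98 genes and 1743 bp for the expressed genes, with quartiles of 959 and 2396 bp and of 1154 and 2633 bp. Genes under 1000 bp made up 28.6% of the 98 and 18.2% of the expressed genes, and genes of 5000 bp or more 3.06% and 4.14%. Short genes were thus somewhat more frequent, and whether length bears on the choice was not tested. Among the identifiers, 5 pairs of the 98 genes carried consecutive numbers. In 1 of these pairs both genes were called the same way between m4447 and m9327. Of the 87 other expressed genes numbered next to 1 of the 98, 4 (4.60%) had an average difference of at least 1 between genotypes, compared with 2.93% of all expressed genes outside the 98. Whether consecutive numbers mean neighboring or overlapping genes, and whether such genes share reads, was not analysed here. The counting is not stated to use strand, so whether reads of genes that overlap on opposite strands were separated is not known here.

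At the threshold of 1.5, the nearest genes inside and outside were alike in their smaller difference, but not in their levels. The nearest gene inside was that of rank 25, described above, with differences of 5.29 in m4447 and 1.51 in m9327. There were 10 genes among the 98 whose smaller difference was under 1.6, and 20 expressed genes lay between 1.4 and 1.5. The nearest gene outside measured 8.66 and 8.39 FPKM in m5567, 20.1 and 25.5 in m8905, 44.1 and 48.4 in m4447, and 44.4 and 38.7 in m9327, with a difference of 1.65 in m4447 and one just under 1.5 in m9327. At the expression requirement, 118 genes met the threshold in both lines but had at least 1 wild-type library under 1 FPKM. The nearest of these measured 1.22 and 0.859 FPKM in m5567, 1.33 and 1.57 in m8905, 7.26 and 10.2 in m4447, and 5.02 and 6.83 in m9327. The gene nearest above the requirement measured 1.09 and 1.22 FPKM in m5567, 2.68 and 2.70 in m8905, 19.3 and 20.9 in m4447, and 11.9 and 11.7 in m9327. At this requirement, a small difference in a single library thus separated genes that met the threshold in both lines.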

How the data were processed

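Poly-A RNA of 4 NIC cell lines was sequenced in duplicate. The authors removed low-quality reads, aligned the rest to the FVB/N genome (Bowtie2 2.2.3, TopHat2 2.0.12), counted reads per gene (HTSeq 0.6.1) and deposited FPKM. Annotation release and strandedness are not given in the sources used here. The authors compared genotypes with DESeq on counts. Here log2(FPKM + 1) of the deposited values was used without rescaling. Tests covered the 12673 genes whose mean over the libraries reached 0.5 FPKM, all 98 genes among them, by limma 3.58.1 in R 4.3.3 (lmFit, eBayes) with Benjamini-Hochberg adjustment at 0.05. Genotypes were compared on 4 line means. Lines of a genotype were compared in a fit of all 8 libraries with 4 groups. Read numbers, lengths and library totals were solved from the FPKM values, and scripts were tested on simulated data. The 98 genes and the gene lists were chosen with earlier results of these data known. Genes printed by identifier are the largest average difference and, of the others, the highest mean FPKM in the deficient libraries. Gene lists, markers, Src, sequences and positions were not analysed here. Alternatives covered pseudocount, filter, scaling, trend, blocking, thresholds and left-out libraries.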

Additional observations from a re-analysis of the deposited data

Results flagged for a closer look

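The difference from the wild-type lines was not the same in both NIC/c-SrcL/L lines for 70 of the 98 genes, since m4447 and m9327 differed by limma at the adjusted threshold, with 57 genes higher in m4447 and 13 higher in m9327. These are 71.4% of the 98 genes, beside 47.2% of all 12673 genes tested. The levels of both lines entered the choice of the 98 genes, so these counts describe them and nothing is read from the shares. For MGP_FVBNJ_G0021030 the difference, m4447 minus m9327, was 0.98 on the log2 scale (17 of 17 other settings past the threshold). For MGP_FVBNJ_G0027272 it was 0.62 (17 of 17). In both genes each m4447 library lay above each m9327 library. What sets the lines apart was not tested.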

How the results depend on the processing

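The number of genes raised in both deficient lines was 98. It was 220 with a difference of at least 1 and 57 with at least 2, and 46 with a wild-type minimum of 5 FPKM, as the stricter or looser limits imply. A minimum of 2 FPKM, a pseudocount of 0.1, median ratio scaling and quantile normalization gave between 75 and 123, and leaving out each library gave 92 to 106. Past the threshold between genotypes there were 24 genes (0.45% of all genes tested), a count that only restates the choice under every setting. The number was 3 with a pseudocount of 0.1 (0.15% of all genes tested), 39 with a filter at a mean of 2 FPKM (0.794%), 97 with 8 libraries as independent samples (15.2%), 96 with line as a random block (5.79%), and 16 to 29 without each library (0.276% to 0.513%). It was 0 by limma without a filter and 0 by limma's voom on solved reads, chosen after seeing the data. Of all genes tested, 0 passed in either direction under these settings. Higher in the deficient lines, 93 and 96 genes had an unadjusted p under 0.05 (1708 of all 22673 and 1187 of 12673). The cause of these changes in the count was not tested. A required difference of at least 1 left 22 genes higher in m4447 (4.46% of all genes tested), 7 higher in m9327 (6.57%), 7 higher in m5567 (2.5%) and 7 higher in m8905 (2.32%). Leaving out each library gave 48 to 57, 13 to 15, 12 to 19 and 17 to 28, where 12 is without the first library of m8905 and 17 without the first of m5567. The shares of all genes tested were 13.9% to 18.1%, 22.5% to 29.3%, 6.89% to 13.2% and 7.15% to 13.3%. All other settings, voom included, gave 52 to 59, 13 to 18, 17 to 22 and 25 to 30, beside 10.4% to 24.5%, 16.7% to 31.5%, 6.44% to 14.2% and 6.22% to 13.8%.

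The duplicate number as a replicate block gave 96 genes between genotypes beside the random block (4.72% of all genes tested), and 56, 13, 17 and 26 genes for the line comparisons (17.4%, 27.7%, 10.9% and 10.9%). The labels give the lines only a shared number, and deviations of same-numbered libraries correlated across genes at -0.18 to 0.06 between lines. The library left alone in a line is assumed to vary like the others. Depth limits the wild-type values of the 25 genes under 50 reads.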
